A study of Mus musculus with 20 samples.

Results

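The genes of cholesterol synthesis, together with those of fatty acid synthesis, elongation and desaturation, were followed in cultured mouse hippocampal neurons after a day of NMDA receptor block. The set was chosen by gene name, with earlier results of these data known. Its counts beside the shares of all genes are therefore descriptions and not independent support. It holds 31 of the 19338 genes tested. Of these, 18 are enzymes that build sterols from acetyl-CoA and 8 are enzymes of fatty acid synthesis. The other 5 are genes for the SREBP factors, the INSIG proteins that hold them back and a sterol carrier. All 31 were on the array, with 61 probes, and all 31 were tested. Each gene was read from its brightest probe, and each of these probes was well above background in the sample channel on all 20 arrays.

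Cells make cholesterol from acetyl-CoA through mevalonate, isoprenoid diphosphates, squalene and a series of sterol intermediates. When the endoplasmic reticulum holds little sterol, SREBP factors are released from the INSIG proteins, are cut in the Golgi and switch on the genes of this pathway and, to a differing degree, those of fatty acid synthesis. The brain makes nearly all of its own cholesterol, in glia and in neurons, and uses it for myelin, for membranes and at synapses.

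The cultures were dissociated mouse hippocampal neurons at day 21 in vitro, and every group was treated for 24 h. The treated groups received 100 µM AP5, a competitive NMDA receptor antagonist, 100 nM NVP-AAM077 (NVP), an antagonist that prefers receptors with the Grin2a product, or 1 µM of a compound called Ro25 here, and the control group received vehicle. The labels give no strain, sex or age of the animals, and the compounds were used at 1 dose each and at different doses. Each group had 5 arrays, numbered 1 to 5 in the sample titles. On each 2-colour array the RNA of a culture (Cy5) was set against a common mouse reference RNA (Cy3), so that every level below is a log2 ratio to that reference and every difference is a difference of log2 ratios between groups. Whether the 5 arrays of a group stand for separate cultures or animals is not said in the labels, and the p-values therefore rest on a spread that could be technical.

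The cultures held more than neurons. All 15 astrocyte markers, Gfap among them, were well above background on all 20 arrays. Of the other marker lists, 12 of 12 neuron, 11 of 12 oligodendrocyte lineage and 6 of 10 microglia markers were measured. Measured means well above background on 5 or more arrays, as 28498 of 41174 probes were. The microglia count therefore does not show by itself that such cells were present. In such bulk RNA, fewer cells of a type and less RNA per cell cannot be told apart. The arrays lay on 7 slides, none of which held AP5 or NVP arrays together with control arrays. Control arrays 1, 2, 4 and 5 lay on slide 5, which held no treated array, and control array 3 lay on slide 4. Treatment and slide can therefore not be fully told apart in the comparisons with control. The number of arrays limits the precision, and arrays of a group correlated at 0.971 to 0.993 over all genes.

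The arrays numbered 5 lay low in the sterol genes of every group. The mean deviation of the 18 sterol enzyme genes from their control means was −0.49 on AP5 array 5, −0.29 on NVP array 5, −0.34 on Ro25 array 5 and −0.27 on control array 5. These arrays had the lowest value of their group for 14 (AP5), 13 (NVP), 13 (Ro25) and 14 (control) of the 18 genes. They also had the highest mean astrocyte marker level of their group, with deviations from the control mean of 0.54, 0.44, 0.46 and 0.19 in the same order of groups. The 4 arrays lay on 4 different slides. The part of cell makeup in the sterol values was not tested, and results are given with and without these arrays.

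The promoters of the genes called below are shown because their letters can be set beside how the genes moved. Of the 31 genes, 24 matched RefSeq's promoter table of build GRCm38.p6; Fdps, Fdft1, Sqle, Stard4, Scd1, Scd2 and Fads1 are not in it. The 250 bases before the start were searched on both strands for TCACNCCAC, a form of the sterol regulatory element bound by SREBP factors, for CCAAT, the box bound by NF-Y, and for GGGCGG, the core of the box bound by Sp1. For genes with several starts the first in the table was used. Capitals mark the sterol regulatory element and CCAAT, which reads ATTGG on the other strand. Hmgcs1 is at chr13:119690101-119690350 (plus strand), Idi1 at chr13:8885356-8885605 (plus strand), Msmo1 at chr8:64733579-64733828 (minus strand), Nsdhl at chrX:72918271-72918520 (plus strand) and Elovl6 at chr3:129532136-129532385 (plus strand), each printed 5′ to 3′ on its own strand.
Hmgcs1: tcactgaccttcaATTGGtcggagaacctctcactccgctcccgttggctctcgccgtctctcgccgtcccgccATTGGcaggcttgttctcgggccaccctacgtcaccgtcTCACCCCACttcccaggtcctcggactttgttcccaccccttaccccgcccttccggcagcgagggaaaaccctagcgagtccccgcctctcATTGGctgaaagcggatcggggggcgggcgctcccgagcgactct
Idi1: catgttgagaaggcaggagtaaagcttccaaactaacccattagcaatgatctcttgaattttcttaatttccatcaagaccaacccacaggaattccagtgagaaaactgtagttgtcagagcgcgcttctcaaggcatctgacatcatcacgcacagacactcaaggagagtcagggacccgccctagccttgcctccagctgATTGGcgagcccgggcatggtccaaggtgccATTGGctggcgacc
Msmo1: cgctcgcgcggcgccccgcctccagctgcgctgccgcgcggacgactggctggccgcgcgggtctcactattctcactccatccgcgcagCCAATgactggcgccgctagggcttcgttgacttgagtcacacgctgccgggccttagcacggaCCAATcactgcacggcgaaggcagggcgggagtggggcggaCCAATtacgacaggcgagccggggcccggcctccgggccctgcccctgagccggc
Nsdhl: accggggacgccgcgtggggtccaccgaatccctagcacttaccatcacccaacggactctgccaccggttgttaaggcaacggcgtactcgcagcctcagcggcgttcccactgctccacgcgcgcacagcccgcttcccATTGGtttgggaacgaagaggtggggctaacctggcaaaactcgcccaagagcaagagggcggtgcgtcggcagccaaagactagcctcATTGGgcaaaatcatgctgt
Elovl6: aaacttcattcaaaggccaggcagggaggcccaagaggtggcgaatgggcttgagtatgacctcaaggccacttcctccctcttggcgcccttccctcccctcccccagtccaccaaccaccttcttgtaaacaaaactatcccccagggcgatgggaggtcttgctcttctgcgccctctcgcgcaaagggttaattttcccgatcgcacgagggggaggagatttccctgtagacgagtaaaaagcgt

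The Hmgcs1 promoter held the only match to TCACNCCAC among the 24, at 137 to 129 bases before the start, between CCAAT matches that begin 176 and 45 bases before it. That element occurred in 1 of 15 sterol enzyme promoters, against 1.05% of 32851 promoters in the table. CCAAT occurred in 13 of 15 sterol enzyme promoters, in 4 of 4 promoters of the SREBP and INSIG genes and in 1 of 5 fatty acid promoters, that of Fasn, against 33.8% of all promoters. GGGCGG occurred in 14 of 15 sterol, 2 of 4 SREBP and INSIG and 2 of 5 fatty acid promoters, against 32.7% of all. The Elovl6 promoter had none of the 3 motifs. A match is a description of the letters in this window and not a site, and the absence of one says nothing about a factor.

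With AP5, 5 of the 31 genes were lower than in control and none higher (limma adjusted p under 0.05 over all genes, where 3.59% of genes were lower and 2.53% higher). Of these, 4 were sterol enzymes, Hmgcs1, Msmo1, Nsdhl and Idi1, and 1 was the fatty acid elongase Elovl6. Of the 18 sterol enzymes, 16 had a log2 difference from control below 0, against 53.5% of all genes, and their median difference was −0.27, against −0.01 for all genes. Of the 8 fatty acid genes, 6 lay below 0 with a median of −0.03. At an unadjusted p under 0.05, 9 sterol genes were lower, against 10.2% of all genes.

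**Figure D1:**
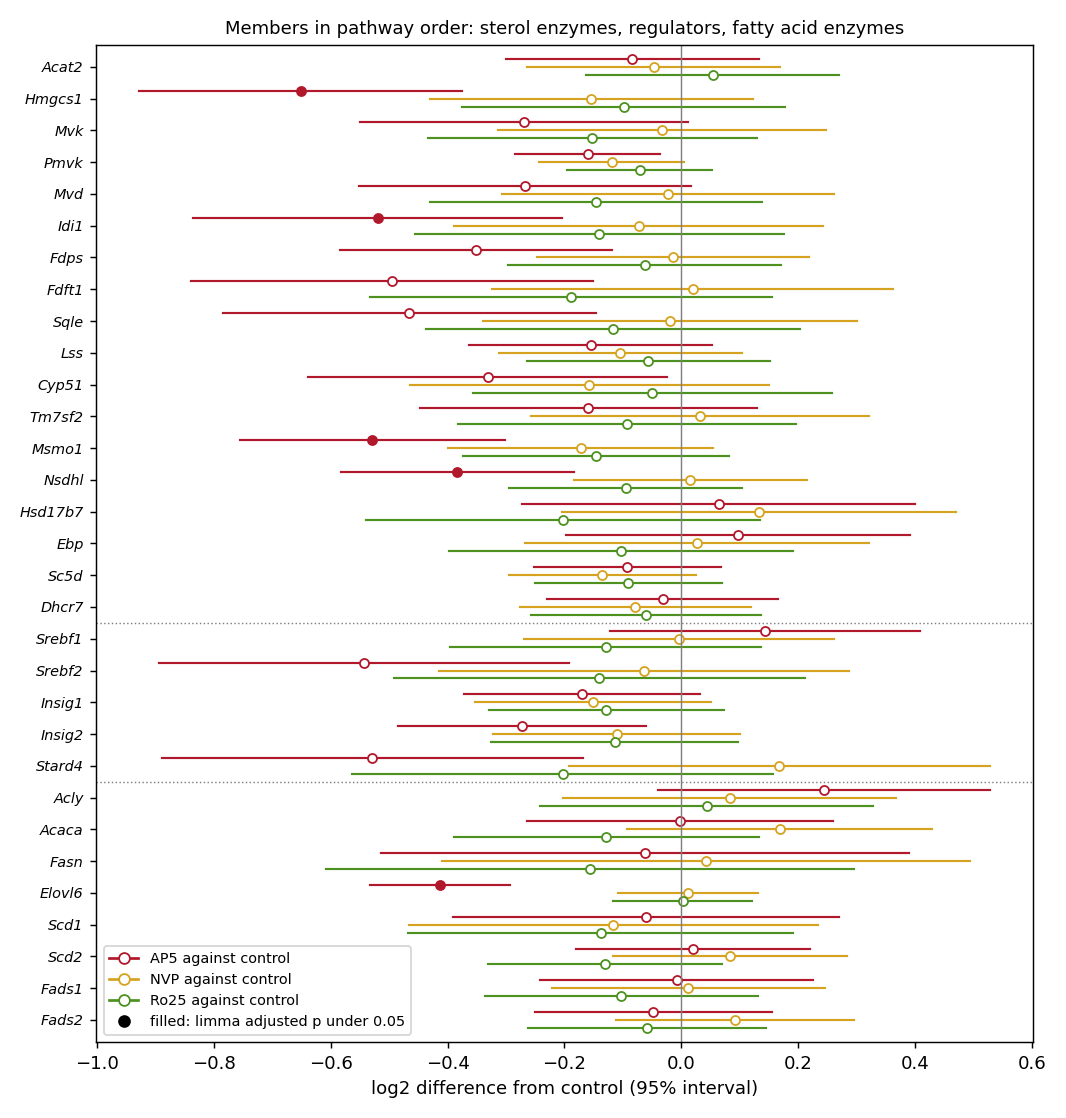
Log2 difference from control of each of the 31 genes with its 95% interval, for AP5, NVP and Ro25 (5 arrays each against 5 control arrays). Filled points passed a limma adjusted p of 0.05; the 5 filled points are all AP5 values, between −0.65 for Hmgcs1 and −0.38 for Nsdhl.

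In the steps from acetyl-CoA to farnesyl diphosphate, AP5 gave differences below 0 for 7 of 7 genes, of which Hmgcs1 and Idi1 passed the test. Hmgcs1 makes HMG-CoA, the precursor of mevalonate. Its log2 ratio was 1.77, 1.61, 1.87, 1.52 and 1.22 on AP5 arrays 1 to 5, against 2.41, 2.21, 2.48, 2.24 and 1.91 on control arrays 1 to 5. All 5 AP5 arrays lay below all 5 control arrays. The difference was −0.65 (1.57-fold lower, SE 0.13, 95% interval −0.93 to −0.38, limma adjusted p = 0.00437). In a fit over all probes, where 2.87% were lower with AP5, the 2 of its 3 probes that were above background on all arrays were called, at −0.65 and −0.55, and the third, above background on 13 arrays, gave −0.13.

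Idi1, which isomerises isopentenyl diphosphate, had ratios of 0.33, 0.06, 0.39, 0.30 and −0.12 on AP5 arrays, against 0.86, 1.04, 0.77, 0.60 and 0.29 on control arrays. The groups overlapped only through control array 5, which lay below AP5 arrays 1, 3 and 4. The difference was −0.52 (1.43-fold lower, SE 0.15, limma adjusted p = 0.0453). That call was lost in 14 of the 20 fits that left out 1 array, where the difference stayed between −0.63 and −0.44. Its other probe gave −0.38, and neither of the 2 passed in the fit over probes.

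Fdps, which makes farnesyl diphosphate, had ratios of −0.45, −0.46, −0.44, −0.49 and −0.73 on AP5 arrays, against −0.09, −0.07, −0.04, −0.11 and −0.51 on control arrays. Each AP5 array numbered 1 to 4 lay below each control array numbered 1 to 4, and in both groups array 5 stood apart below. With all arrays the difference of −0.35 did not pass (SE 0.11, limma adjusted p = 0.0728). The mevalonate kinase Mvk and the decarboxylase Mvd differed by −0.27 each, the phosphomevalonate kinase Pmvk by −0.16 and the thiolase Acat2 by −0.08, with adjusted p of 0.31, 0.322, 0.136 and 0.781. For Mvk, Mvd and Pmvk 5 of 5 AP5 arrays lay below the control mean, and for Acat2 3 of 5.

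**Figure D2:**
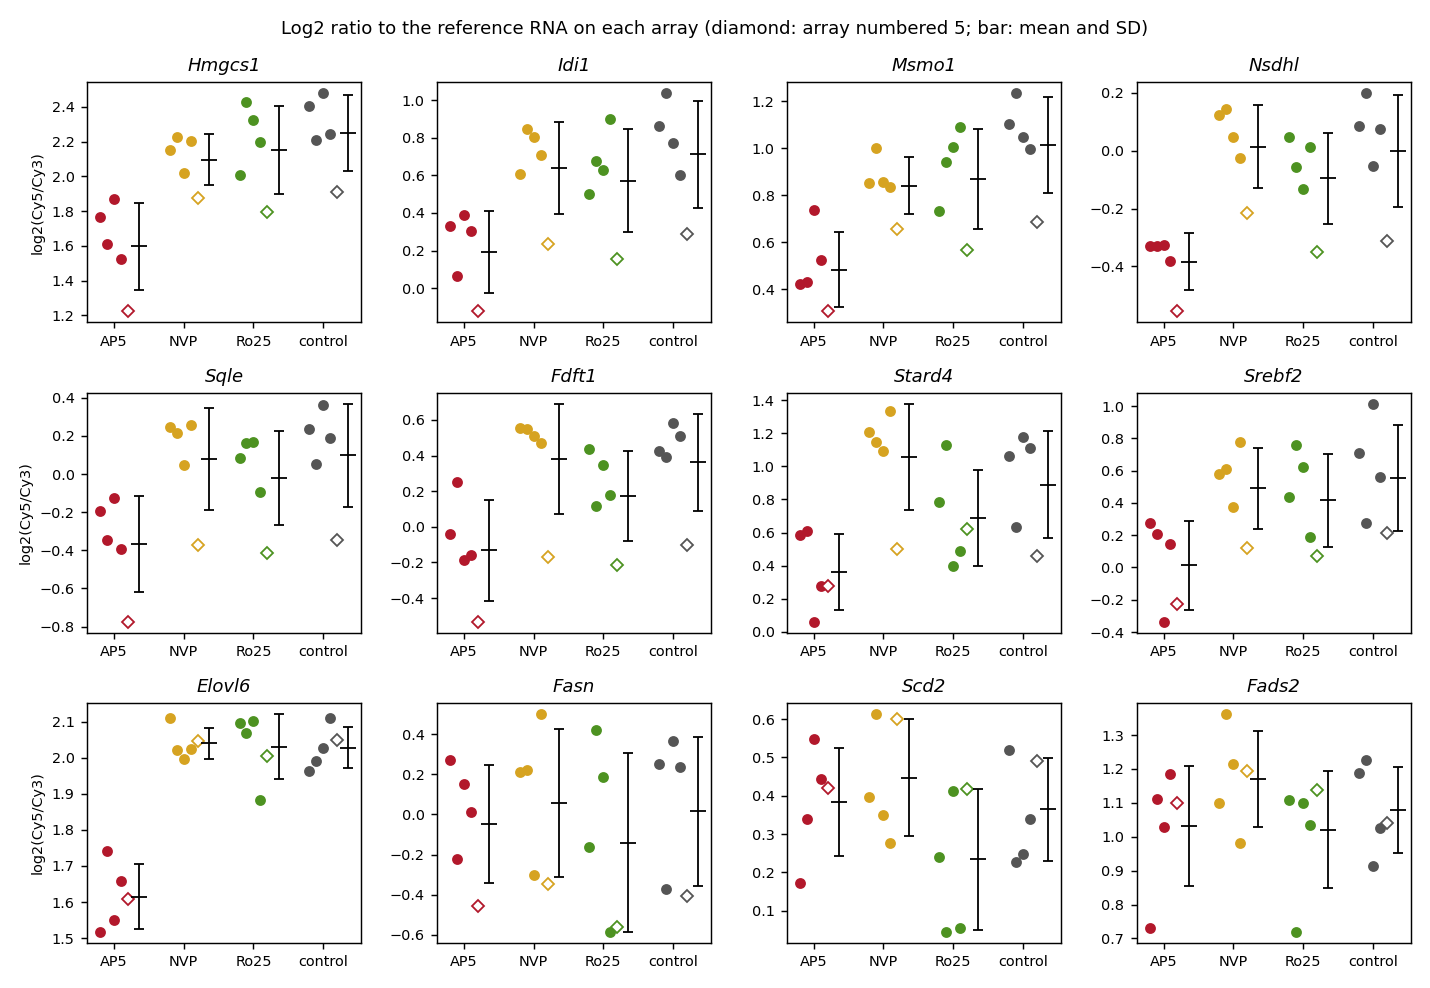
Log2 ratio to the reference RNA on each array for 8 genes of the sterol branch and its regulators and 4 fatty acid genes; each group's 5 arrays run from number 1 to 5, the open diamond is array 5 and the bar is the mean with its SD. In Hmgcs1, Nsdhl and Elovl6 the 5 AP5 arrays lie below all 5 control arrays, whereas Fasn, Scd2 and Fads2 overlap in all groups.

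From squalene to the finished sterols, 2 of 11 genes were lower with AP5, and both belong to the step that strips methyl groups from the sterol ring. Msmo1, the oxidase of that step, had ratios of 0.42, 0.43, 0.74, 0.52 and 0.31 on AP5 arrays, against 1.10, 1.23, 1.05, 1.00 and 0.69 on control arrays. The groups overlapped by 1 pair, AP5 array 3 over control array 5. The difference was −0.53 (1.44-fold lower, SE 0.11, limma adjusted p = 0.00477). Its call held in all 20 fits that left out 1 array, but rests on the 1 probe kept for the gene.

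Nsdhl, the decarboxylating dehydrogenase that follows Msmo1, had ratios of −0.33, −0.33, −0.33, −0.38 and −0.56 on AP5 arrays, against 0.09, 0.20, −0.05, 0.08 and −0.31 on control arrays. All AP5 arrays lay below all control arrays, by a narrow gap to control array 5. The difference was −0.38 (1.3-fold lower, SE 0.10, limma adjusted p = 0.0185), and 3 of its 4 probes were called. The call was lost when AP5 array 5 or control array 1, 2 or 4 was left out (highest adjusted p = 0.0577). Hsd17b7, the ketoreductase that ends the same step, had a difference of 0.06 (95% interval −0.27 to 0.40).

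Fdft1, squalene synthase, had ratios of −0.04, 0.25, −0.19, −0.16 and −0.53 on AP5 arrays, against 0.43, 0.39, 0.58, 0.51 and −0.10 on control arrays. Sqle, the squalene epoxidase and a rate-limiting enzyme of the later pathway, had ratios of −0.19, −0.35, −0.12, −0.39 and −0.77 on AP5 arrays, against 0.24, 0.06, 0.36, 0.19 and −0.35 on control arrays. In both genes control array 5 fell among the AP5 arrays while control arrays 1 to 4 lay above all 5 of them. The differences were −0.49 for Fdft1 (SE 0.16, limma adjusted p = 0.0887) and −0.47 for Sqle (SE 0.15, limma adjusted p = 0.0843), and neither passed. A second Fdft1 probe, above background on 5 arrays, gave −0.05.

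At the probes read, the other enzymes after squalene lay nearer to 0 with AP5. The lanosterol demethylase Cyp51 differed by −0.33 (adjusted p = 0.234), the sterol reductase Tm7sf2 by −0.16 and the lanosterol synthase Lss by −0.16. Other probes gave −0.30 and −0.46 for Cyp51, −0.11 and 0.02 for Lss and 0.07 for Sc5d. None of these was called in the fit over probes. The last steps gave −0.09 for the desaturase Sc5d, 0.10 for the isomerase Ebp and −0.03 for Dhcr7, the reductase that ends one route to cholesterol, with 95% intervals of −0.25 to 0.07, −0.20 to 0.39 and −0.23 to 0.17. None of these 6 genes passed the test. The median was −0.27 over the 7 genes up to farnesyl diphosphate and −0.16 over the 11 after it, and the difference between these stretches was not tested.

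**Figure D3:**
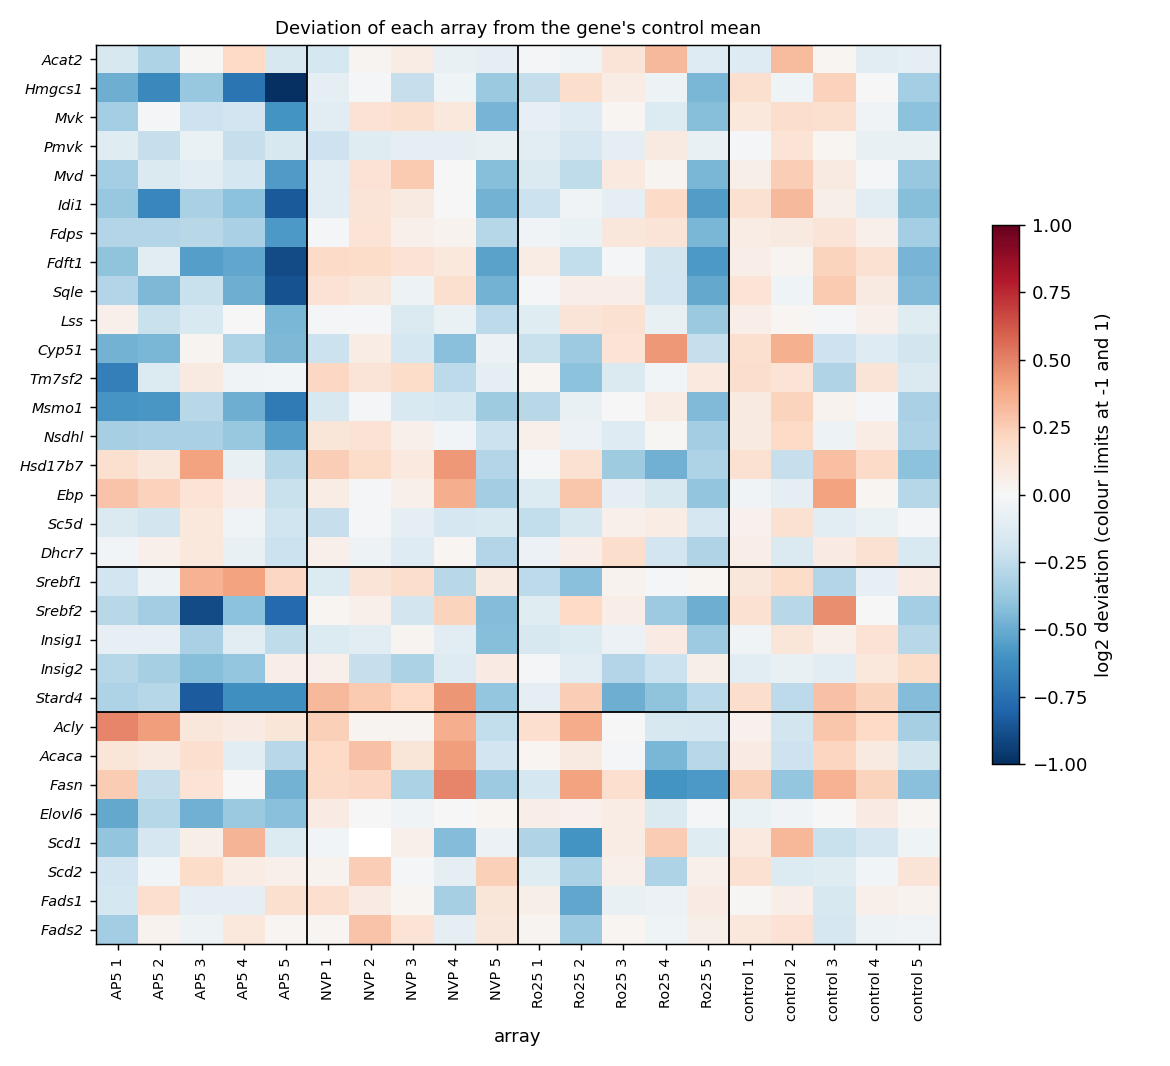
Deviation of each array from the gene's control mean (log2, colour limits at −1 and 1) for the 31 genes in pathway order and the 20 arrays, with lines between groups and between sterol enzymes, regulators and fatty acid enzymes; the blank cell is a spot left out as an outlier. The AP5 columns are blue from Hmgcs1 to Nsdhl for most genes, and the column numbered 5 is the bluest of its group in the sterol rows of every group.

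Among the 5 genes of SREBP control, AP5 gave differences below 0 for 4 and none passed the test. Srebf2, the SREBP factor most tied to sterol genes, had ratios of 0.28, 0.20, −0.34, 0.14 and −0.23 on AP5 arrays, against 0.71, 0.28, 1.02, 0.56 and 0.21 on control arrays. The groups overlapped, with 5 of 5 AP5 arrays below the control mean. The difference was −0.54 (SE 0.17, 95% interval −0.89 to −0.19, limma adjusted p = 0.0634). Its 4 probes lay between −0.54 and −0.09, and 1 of them, at −0.40, was called in the fit over probes (limma adjusted p = 0.0291).

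Stard4, a cytosolic carrier that moves sterol between membranes, had ratios of 0.58, 0.61, 0.06, 0.28 and 0.28 on AP5 arrays, against 1.06, 0.63, 1.18, 1.11 and 0.46 on control arrays. The difference was −0.53 (SE 0.17, limma adjusted p = 0.0815). Its 2 other probes gave −0.44 each and were called in the fit over probes (limma adjusted p = 0.0148 and 0.0247). Insig2 differed by −0.27 (adjusted p = 0.136) and Insig1 by −0.17 (adjusted p = 0.395). Their second probes, each above background on all 20 arrays, gave −0.06 for Insig2 and −0.22 for Insig1. Srebf1, the factor most tied to fatty acid genes, differed by 0.14 (95% interval −0.12 to 0.41), and 2 of 5 AP5 arrays lay below its control mean.

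Among the fatty acid genes the AP5 call was that of Elovl6 alone. Elovl6, which lengthens palmitate toward stearate, had ratios of 1.52, 1.74, 1.55, 1.66 and 1.61 on AP5 arrays, against 1.96, 1.99, 2.03, 2.11 and 2.05 on control arrays. All AP5 arrays lay below all control arrays, and neither array 5 stood apart. The difference was −0.41 (1.33-fold lower, SE 0.06, 95% interval −0.53 to −0.29, limma adjusted p = 0.000102), and it was called in all 20 fits that left out 1 array. Only 1 probe was kept for Elovl6, so no second probe could be set beside it.

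The other 7 fatty acid genes did not pass. Fasn, the fatty acid synthase, averaged −0.05 ± 0.29 on AP5 arrays and 0.02 ± 0.37 on control arrays (SD, n = 5 each), a difference of −0.06 with an interval of −0.51 to 0.39. Acaca, the carboxylase that makes malonyl-CoA, averaged −0.67 ± 0.19 on AP5 arrays and −0.67 ± 0.18 on control arrays, but its 3 probes disagreed, at −0.30, 0.00 and 0.13. Acly, which makes cytosolic acetyl-CoA, lay above its control mean on 5 of 5 AP5 arrays, with a difference of 0.24 (adjusted p = 0.382).

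The desaturases differed little with AP5. Scd1 and Scd2, which make monounsaturated fatty acids, differed by −0.06 and 0.02, with intervals of −0.39 to 0.27 and −0.18 to 0.22. Fads1 and Fads2, which desaturate polyunsaturated fatty acids, differed by −0.01 and −0.05, with intervals of −0.24 to 0.23 and −0.25 to 0.16. For Scd2, Fads1 and Fads2 these intervals leave out a difference as large as that of Elovl6.

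Groups that did not overlap, with all AP5 arrays lower, were seen for 3 of the 31 genes, Hmgcs1, Nsdhl and Elovl6, against 3.91% of all genes. Averaged over genes on each array, the 18 sterol enzymes deviated from the control mean by −0.27 ± 0.14 on AP5 arrays, −0.05 ± 0.14 on NVP arrays, −0.10 ± 0.14 on Ro25 arrays and 0.00 ± 0.16 on control arrays (SD, n = 5 each). The 8 fatty acid genes deviated by −0.04 ± 0.06, 0.05 ± 0.08, −0.08 ± 0.09 and 0.00 ± 0.08 in the same order. The sterol mean less the fatty acid mean was −0.16, −0.24, −0.12, −0.24 and −0.37 on AP5 arrays 1 to 5, against −0.01, 0.15, 0.05, −0.03 and −0.17 on control arrays 1 to 5. Control array 5 reached into the AP5 range, and the other control arrays lay above it. The same contrast was −0.14, −0.10, 0.01, −0.05 and −0.25 on NVP arrays 1 to 5. On Ro25 arrays 1 to 5 it was −0.07, 0.05, −0.03, 0.18 and −0.22. NVP arrays 1 and 5 and Ro25 array 5 thus also lay within the AP5 range.

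**Figure D4:**
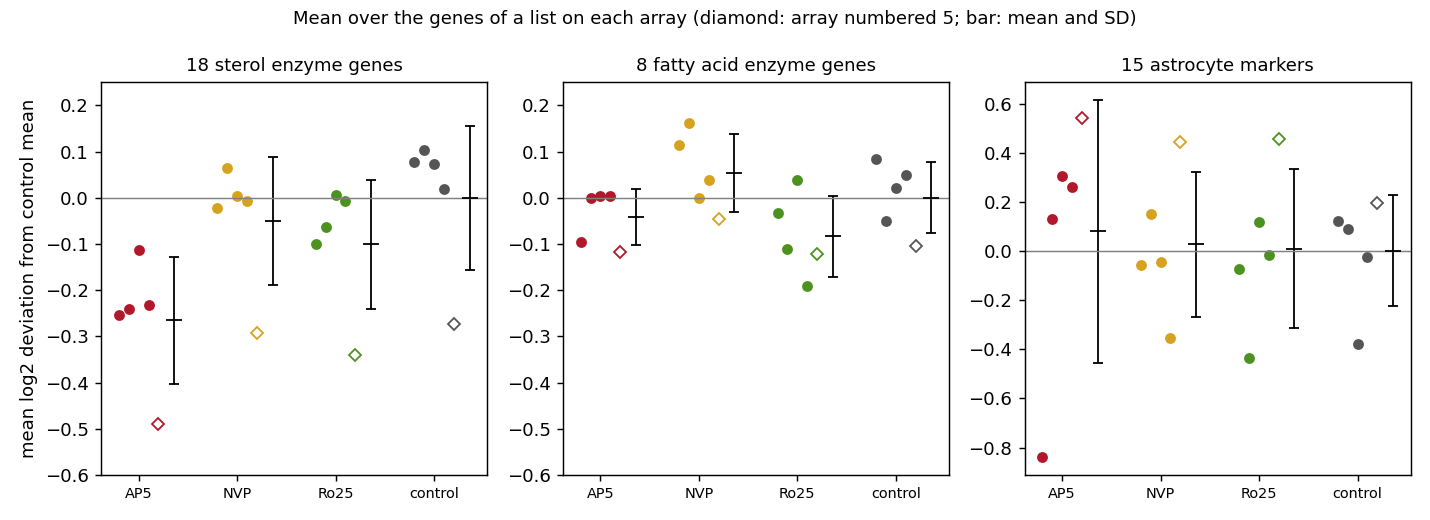
Mean deviation from the control mean (log2) on each array over the 18 sterol enzyme genes, the 8 fatty acid genes and the 15 astrocyte markers, the last on its own scale; diamonds are arrays numbered 5 and bars are mean and SD. In each group the diamond is lowest in the sterol panel and highest in the astrocyte panel.

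Without the 4 arrays numbered 5, an alternative chosen after the data had been seen, 9 of the 31 genes were lower with AP5, against 2.71% of all genes. They were Hmgcs1, Idi1, Fdps, Fdft1, Sqle, Msmo1, Nsdhl, Stard4 and Elovl6. The differences of the genes gained were close to those with all arrays, at −0.38 for Fdps, −0.51 for Fdft1, −0.47 for Sqle and −0.62 for Stard4 (limma adjusted p = 0.00181, 0.00494, 0.00465 and 0.0412), while the SE fell to 0.06, 0.10, 0.09 and 0.16. The median was −0.29 over the sterol enzymes and −0.05 over the fatty acid genes. Leaving out control array 5 alone gave 10 genes, and leaving out control array 1, 2 or 4 gave 3. The share of all genes in these single-array fits is not given. A change among the members can therefore not be told from a general one.

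Slide and normalization also bore on these calls. With slide as a fixed block, 0 of the 31 genes and 0.212% of all genes (41) were called. The AP5 value then rests on AP5 arrays 1 and 5 and control array 3, joined only through NVP and Ro25 arrays on shared slides. Hmgcs1 lay at −1.38 (limma adjusted p = 0.0686) and Elovl6 at −0.53 (limma adjusted p = 0.148). Of the other fatty acid genes, Fasn lay at −1.24, Acaca at −0.66, Fads1 at 0.58 and the rest between −0.28 and 0.26. With each array only centred on its median in place of loess, 0 of the 31 and 0.853% of all genes (165) were called, with Hmgcs1 at −0.49 and Elovl6 at −0.28.

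With all arrays, NVP and Ro25 changed none of the 31 genes against control by limma adjusted p. Of all genes, 0% were called with NVP and 0.0155% with Ro25. None of the 31 reached an unadjusted p of 0.05, against 5.87% and 4.34% of all genes. The 31 differences lay between −0.17 (Msmo1) and 0.17 (Acaca) with NVP and between −0.20 (Stard4) and 0.05 (Acat2) with Ro25. All these values are for the probe read for each gene, and other probes could differ. In the fit over probes, the lowest Acaca probe gave −0.27 with NVP (limma unadjusted p = 0.0085) and −0.30 with Ro25. The second Insig2 probe gave 0.20 with NVP (limma unadjusted p = 0.034), against −0.11 for the probe read. The median over the sterol enzymes was −0.04 with NVP and −0.10 with Ro25, and over the fatty acid genes 0.06 and −0.12. With slide as a fixed block the sterol medians were −0.28 with NVP, whose arrays shared no slide with a control array, and −0.25 with Ro25. With Ro25, 17 of 18 sterol enzymes lay below 0, against 49.3% of all genes.

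The intervals show what these antagonists leave possible for the genes that were lower with AP5. Hmgcs1 had ratios of 2.15, 2.23, 2.02, 2.21 and 1.88 on NVP arrays and 2.01, 2.43, 2.33, 2.20 and 1.80 on Ro25 arrays, with differences from control of −0.15 (95% interval −0.43 to 0.12) and −0.10 (−0.38 to 0.18). Both groups overlapped the control arrays. Elovl6 had ratios of 2.11, 2.02, 2.00, 2.02 and 2.05 on NVP arrays and 2.10, 2.07, 2.10, 1.88 and 2.01 on Ro25 arrays, with differences of 0.01 (−0.11 to 0.13) and 0.00 (−0.12 to 0.12). For Msmo1 the differences were −0.17 (−0.40 to 0.05) with NVP and −0.15 (−0.37 to 0.08) with Ro25. On slide 4, the only slide that held a control array with treated arrays, 3 Ro25 arrays differed from control array 3 by a median of −0.25 over the sterol enzymes and −0.02 over the fatty acid genes. Without Ro25 array 5, which is 1 of the 3, these medians were −0.11 and −0.07.

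AP5 was also set against each of the other antagonists, in comparisons that share the AP5 arrays and differ in compound and dose. Against NVP, 4 of the 31 genes were lower with AP5 (3.09% of all genes were): Hmgcs1 by −0.50, Nsdhl by −0.40, Stard4 by −0.70 and Elovl6 by −0.42 (limma adjusted p = 0.0291, 0.0152, 0.019 and 9.93e-05). Against Ro25, 2 were lower (1.97% of all genes were), Hmgcs1 by −0.55 and Elovl6 by −0.42 (limma adjusted p = 0.0221 and 0.000134). Stard4 had ratios of 1.21, 1.15, 1.09, 1.33 and 0.50 on NVP arrays, so that 4 of them lay above all AP5 arrays, and 0.79, 1.13, 0.40, 0.49 and 0.62 on Ro25 arrays. The −0.70 of Stard4 against NVP comes from the probe read for the gene, and its 2 other probes gave −0.31 and −0.42.

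Without the arrays numbered 5 these counts were 9 against NVP (2.96% of all genes lower) and 6 against Ro25 (1.66%). Of single arrays, leaving out NVP array 1, 2 or 4 gave 2, 1 and 2 genes against NVP and leaving out NVP array 5 gave 9. Against Ro25, leaving out AP5 array 4 or 5 or Ro25 array 2 or 3 gave 1 gene, and leaving out Ro25 array 5 gave 5. Shares of all genes in these single-array fits are not given. On slide 6, AP5 array 1 differed from Ro25 array 2 by −0.66 in Hmgcs1 and −0.55 in Elovl6, and on slide 2 AP5 array 5 differed from NVP arrays 2, 3 and 4 by −0.93 and −0.40. On slide 2 only the AP5 side is an array numbered 5. Set against NVP array 5, on another slide, AP5 array 5 differed by −0.65 in Hmgcs1 and −0.44 in Elovl6. Fasn and Acaca differed by −0.59 and −0.56 on slide 2, but by −0.11 and −0.09 between AP5 array 5 and NVP array 5. On slide 6 they differed by −0.15 and 0.03.

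Genes of neighbouring lipid pathways were taken from lists of related genes, and their calls with AP5 stand beside 3.59% of all genes lower. In lists this short, 1 call or none cannot be told from that share. Of 15 genes of SREBP processing and lipoprotein uptake, 1 was lower, Scarb1, a receptor for high-density lipoprotein, by −0.34 (SE 0.09, limma adjusted p = 0.0215), with a list median of −0.01. Of 13 genes of LXR and cholesterol export, 1 was lower, Nr1h2, the oxysterol receptor LXR beta, by −0.32 (SE 0.06, limma adjusted p = 0.00443), with a list median of 0.0046. Of 20 other genes of fatty acid and glycerolipid synthesis, 1 was lower, the fatty acid binding protein Fabp3, by −0.26 (SE 0.07, limma adjusted p = 0.0218). None of 10 genes of other isoprenoid synthesis passed, and their median was 0.03.

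Genes of fatty acid oxidation had a median of 0.08 with AP5, with 0 of 14 called, and the arrays numbered 5 had the highest mean of this list in each group. Of the marker lists, astrocyte (0 of 15, median 0.05) and oligodendrocyte lineage markers (0 of 11, median −0.06) gave no call, where 2.53% of all genes were higher and 3.59% lower. The astrocyte mean ranged from −0.84 to 0.54 on AP5 arrays and from −0.38 to 0.19 on control arrays, AP5 array 1 being the lowest. That array was also lowest of all arrays in neuron markers (mean −0.55, against 0.03 to 0.13 on the other AP5 arrays and −0.18 to 0.15 on control arrays) and in oligodendrocyte lineage markers (−0.55). Without it, 6 of the 31 genes were called against control, and the share of all genes in that fit is not given. One neuron marker of 12 was higher, the RNA-binding protein gene Celf4 by 0.67 (limma adjusted p = 0.0218), with a list median of −0.07. One microglia marker of 6 was higher, the receptor gene Csf1r by 0.46 (limma adjusted p = 0.00279), with a list median of −0.03. The part of these lists in the sterol differences was not tested.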

How the data were processed

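The authors deposited the scanner output of 20 two-colour Agilent arrays (sample in Cy5, reference in Cy3, no dye swap, per the labels). Its spot brightness is an intensity, and the submitters' processing notes name Agilent Feature Extraction 11.0, while the file headers give 10.7.3.1. Median intensity per array ranged over 142 to 185 (red) and 115 to 138 (green), and 86 to 172 spots were left out as outliers. The files also hold a log10 ratio of red over green per spot, background-subtracted and dye-normalized by the scanner software per the file headers, which served as an alternative. The authors also deposited a table of 20674 probes as log2 ratios. Over 11134 probes above background in both channels on all arrays, each column rose with the scanner's log ratio put on a log2 scale (slope 0.834 to 0.858, r = 0.987 to 0.991). Column medians were 0.0302 to 0.0626. Its log2 scale and direction are thus settled, while its normalization and centring are not known. It, too, was used as an alternative.

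Intensities were corrected with normexp (offset 50) and loess, spots of a probe averaged, probes kept where the sample channel passed the scanner's background test on 5 or more arrays (28498 of 41174), and each gene read from its brightest probe. Names came from the files and from a RefSeq table of GRCm38.p6. One limma model (limma 3.58.1, R 4.3.3, data.table version 1.17.8) with a mean per group (16 residual df) tested 6 pairs of groups, two-sided, with Benjamini-Hochberg adjustment at 0.05 over 19338 genes. On simulated data for AP5 against control over 19338 genes, 78% of genes changed 1.5-fold and 94% of those changed 2-fold were called. Of the calls, 6.01% were unchanged genes. The simulated noise was independent between arrays, with no slide effect and no shift of the arrays numbered 5. These shares therefore need not hold for the sterol genes. The named genes were all 31 of the set and, from each list, up to 4 called with AP5 against control, by adjusted p. The genes and lists were chosen with earlier results of these data known. Slides and 3 scan days came from file headers.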

Additional observations from a re-analysis of the deposited data

Results flagged for a closer look

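In 131 groups of 5 arrays (the 31 genes and the branch means in the 4 groups), 11 had 1 array whose distance to its nearest neighbour took up most of the group's range by Dixon's test, which chance does in about 1 of 20 groups. Of these, 8 were arrays numbered 5. Fdps stood at −0.73 on AP5 array 5, where the next AP5 array was at −0.49, and at −0.51 on control array 5, where the next control array was at −0.11. Fdft1 stood at −0.17 on NVP array 5 and −0.10 on control array 5, and Nsdhl at −0.56 on AP5 array 5. Insig2 was high on AP5 array 5, at 0.74, where the next array was at 0.38. The mean deviation over the 18 sterol enzymes was −0.29 on NVP array 5 and −0.27 on control array 5, below the next arrays at −0.02 and 0.02.

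The other 3 were desaturase genes on arrays with low astrocyte marker means. Fads1 stood at −1.01 and Fads2 at 0.72 on Ro25 array 2, where that mean was −0.44, and Fads1 at −0.65 on control array 3, where it was −0.38. Whether cell makeup plays a part in these values was not tested.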

How the results depend on the processing

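The AP5 differences of Hmgcs1, Msmo1 and Elovl6 kept direction under every alternative that measured them. The members called with AP5 numbered 4 to 6 under the scanner's log ratio, the authors' table (which lacks Idi1 and Msmo1), other probe filters, the mean over probes, slide as a random block, the first scan day and only the groups compared. Under these settings 2.28% (no filter on dim probes) to 4.61% (probes above background on all arrays) of all genes were lower. When 1 array was left out the members numbered 3 to 10, and the share of all genes is not given. Median centring gave 0 members in AP5 against control, NVP and Ro25 (165, 121 and 85 genes) and a fatty acid median of 0.0959. Slide as a fixed block gave 0, 1 and 2 members (41, 108 and 205 genes), sterol medians of −0.70, −0.28 and −0.25 for AP5, NVP and Ro25 against control and a Ro25 fatty acid median of −0.0209. The first day gave 2 members and 634 genes against NVP, 300 genes against Ro25 and a Ro25 fatty acid median of −0.0312. Only the groups compared gave 775 genes against control and, against Ro25, 235 genes and 1 member. Ro25 against control gave 3 genes with all arrays, 1 with probes above background on all arrays, 0 to 5 with 1 array left out and 0 under the other settings that moved it. With 1 array left out, AP5 gave 1 to 9 members against NVP and 1 to 5 against Ro25, and the Ro25 fatty acid median was −0.133 to −0.0312. Without the arrays numbered 5 these counts were 9, 9 and 6.

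The numbers were not taken to pair arrays, since number 5 correlated at 0.57 to 0.76 in all 6 pairs but only 5 of 24 pairs of numbers 1 to 4 exceeded 0.1. With the replicate block, 12 members were called against control, 10 against NVP and 7 against Ro25, where 3.76%, 3.29% and 2.17% of all genes were lower.

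Uncalled differences of AP5 from control changed sign as follows, causes not tested. Scanner ratio: Acaca 0.0491, Fasn 0.0265. Median centring: Acaca 0.0652, Dhcr7 0.12, Fads1 0.134, Fads2 0.0805, Fasn 0.103, Sc5d 0.0532, Scd1 0.0891. Authors' table: Sc5d 0.099. Slide block: Acly −0.276, Ebp −0.788, Fads1 0.579, Fads2 0.171, Hsd17b7 −0.645, Insig2 0.203, Scd1 0.263, Tm7sf2 0.228. Random block: Acaca 0.0101. First day: Fads1 0.0787, Fads2 0.0537, Hsd17b7 −0.0817, Scd1 0.0118. Without number 5: Acaca 0.0219. Leaving out 1 array: Acaca −0.0526 to 0.0675, Dhcr7 −0.0705 to 0.0138, Fads1 −0.053 to 0.0344, Fads2 −0.0893 to 0.0278, Fasn −0.168 to 0.0388, Hsd17b7 −0.0396 to 0.152, Scd1 −0.161 to 0.0236, Scd2 −0.0216 to 0.0725.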
